A study of Oryza sativa with 12 samples.

Results

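Developing seeds of 35S-15 and HFL1, 2 transgenic rice lines whose seed lysine is labelled high, were compared as 1 group of 6 arrays with 3 arrays of seeds from wild-type Wuxiangjiang9 (WT), a variety with a normal lysine label. The comparison uses 9 of the 12 arrays of the series, chosen by their strain label alone. The other 3 arrays are of GR14, another line labelled high in lysine, which was left out of the fit. The labels put all seeds at 10 days after flowering (DAF), whereas the design text of the series says 15 DAF. All plants grew in a field. Earlier work on these lines describes HFL1 as combining the transgenes of GR14 and 35S-15. The labels name no transgene, promoter or number of independent events, so each line may be a single event. HFL1 may also share an event with 35S-15, so the 2 pooled lines may not be independent of each other. The question is which transcripts the 2 lines have in common, set against WT. The labels do not say that the 3 arrays of a strain came from separate plants, so p-values here rest on array-to-array spread that may be technical alone.

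Lysine is the essential amino acid that limits the food value of cereal grain. Plants make it from aspartate, in a pathway shared with methionine and threonine, and its level in seeds depends on the feedback control of its synthesis, on its breakdown and on the make-up of the storage proteins. A developing rice seed holds a starchy endosperm, which stores starch, glutelins and prolamins, an embryo and an aleurone layer, and a green pericarp that carries out photosynthesis.

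Values are log2 MAS5 signals, on which a difference of 1 is a doubling. The 9 arrays resembled each other, with Spearman correlations of 0.942 to 0.972 over the 30507 probe sets tested, and no pair of arrays held identical values. The mean of the array medians was 5.93, and folds against a level near or under it are of uncertain size, since no detection calls were used. The storage protein transcripts that define seed endosperm stood near the top of the scale in all strains. The glutelin GLUB-5, for example, was at 15.38 to 16.08 in the lines, and at 15.36, 15.40 and 15.13 in WT.

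The 3 arrays labelled WT were not alike, which touches every result below. A control probe set known here only by its reporter prefix (RPTR), RPTR-Os-K01193-1_at, read 0.36 to 4.67 in the 6 arrays of the lines. It read 4.53 in WT array 1, and 13.51 and 13.78 in WT arrays 2 and 3. OsBiP4, a chaperone of the endoplasmic reticulum (ER), was at 2.41 to 6.13 in the lines, against 4.88 in WT array 1 and 12.71 and 13.17 in WT arrays 2 and 3. WT arrays 2 and 3 thus carried strong signal for this control probe set and for OsBiP4 that WT array 1 and both lines lacked. GR14 lacked it too, at 2.69 to 4.32 on the control probe set and 0.40 to 3.98 on OsBiP4. Whether the strain label of WT arrays 2 and 3 is correct was not tested. WT below means the arrays with that label, and the counts, and the main values that moved with the control array, are also given by control. The plot of list medians shows all lists under each control.

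Both lines shared a small set of transcripts that were far above WT. Of 30507 probe sets, 10 passed the test (limma, Benjamini-Hochberg adjusted p under 0.05), or 0.0328%, and all 10 were higher in the lines. No probe set passed in the other direction, although 2213 had an unadjusted p under 0.05 (7.25%), of which 768 were lower (2.52%) and 1445 higher (4.74%). The 6 arrays of the lines all lay above the 3 WT arrays on 581 probe sets (1.90%) and all below them on 409 (1.34%). Of the 10 probe sets, 4 belong to 2 genes, LOC4331398 and LOC9268308, and the other 6 have no gene in the annotation used here, so their functions are not given.

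LOC4331398 was far above the array medians in the lines, and near or below them in WT. Its probe set Os.43929.1.S1_s_at read 13.46 at the lowest, 13.55 at the median and 13.66 at the highest in the 6 arrays of the lines, against 4.56, 6.80 and 6.39 in WT. It rose by 7.63 ± 0.36 (SE) on the log2 scale, with a limma adjusted p of 2.38e-06. The 6 arrays of the lines lay close together, the 3 WT arrays were spread widely, and the groups did not overlap. Its other probe set, Os.8823.1.S1_at, read 12.82, 12.94 and 13.11 in the lines (lowest, median, highest), against 1.63, 5.85 and 5.86 in WT, and rose by 8.50 ± 0.72 with a limma adjusted p of 0.000414. GR14 was also high on both probe sets, at 13.57 to 13.74 and 12.67 to 13.16, and the lines differed from it by -0.13 and -0.04 (adjusted p 0.862 and 0.984).

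LOC9268308 was high in 35S-15 and HFL1 and low in WT, and it was also low in GR14. Os.10659.1.S1_s_at read 10.63, 11.03 and 11.57 in the lines, against 6.64, 6.01 and 4.66 in WT, and rose by 5.32 ± 0.35 with a limma adjusted p of 3.47e-05. Os.10659.1.S1_at read 8.85, 9.08 and 9.46 in the lines, against 6.13, 2.52 and 3.10 in WT. It rose by 5.20 ± 0.59 with a limma adjusted p of 0.00687. This call did not hold without WT array 3 (limma adjusted p 0.0608), in 35S-15 or HFL1 alone (0.057 and 0.0573) or in the fit without trend. For neither probe set did the groups overlap, and WT array 1 was the highest WT array on both. In GR14 the 2 probe sets read 5.13 to 5.81 and 3.04 to 3.64, which put the lines 5.52 and 5.72 above GR14 (limma adjusted p 6.26e-07 and 5.40e-05, in a fit that included the GR14 arrays). That comparison called 9.71% of probe sets, with 5.27% higher and 4.43% lower in the lines.

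**Figure D1:**
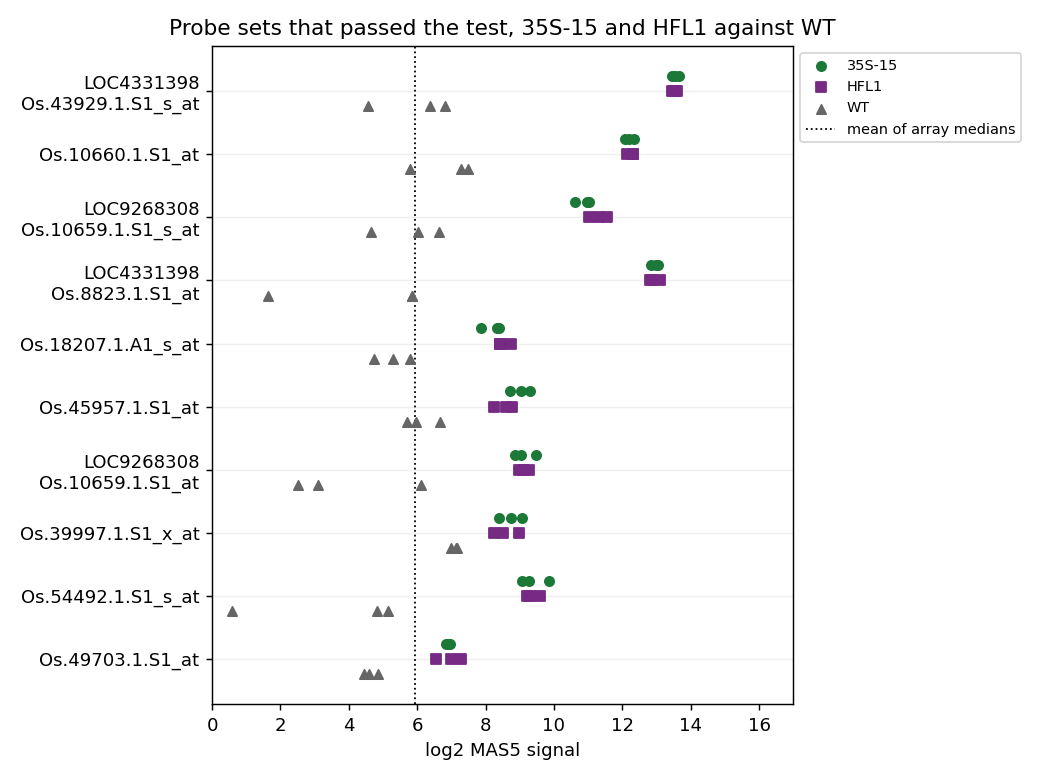
Log2 MAS5 signal (horizontal axis) of the 10 probe sets that passed the test, with 1 point per array for 35S-15, HFL1 and WT; the dotted line is the mean of the array medians, 5.93. On every probe set the 6 arrays of the lines lie to the right of the 3 WT arrays, and 35S-15 and HFL1 overlap or lie side by side.

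Among the unnamed probe sets, Os.10660.1.S1_at and Os.54492.1.S1_s_at had the largest folds. Os.10660.1.S1_at read 12.09, 12.24 and 12.35 in the lines, against 5.80, 7.29 and 7.48 in WT, and rose by 5.37 ± 0.29 (limma adjusted p 5.51e-06). GR14 was also high on it, at 11.98 to 12.48. Os.54492.1.S1_s_at read 9.07, 9.29 and 9.86 in the lines, against 4.83, 5.15 and 0.58 in WT, and rose by 5.87 ± 0.77 (limma adjusted p 0.0218). This call did not hold when any 1 of the 6 line arrays was left out, or in 35S-15 or HFL1 alone (adjusted p 0.145 and 0.179). GR14 was low on it, at 4.62 to 6.23, as it was on LOC9268308.

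The other 4 unnamed probe sets had smaller folds and no common place for GR14. Os.18207.1.A1_s_at read 7.87, 8.41 and 8.73 in the lines, against 5.30, 4.73 and 5.80 in WT, and rose by 3.09 ± 0.26 (limma adjusted p 0.000414). GR14 spread widely on it, at 6.09 to 8.16, and lay 1.49 below the lines (adjusted p 0.0316). Os.45957.1.S1_at read 8.24, 8.75 and 9.29 in the lines, against 5.71, 5.98 and 6.67 in WT, and rose by 2.66 ± 0.26 (limma adjusted p 0.00168).

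GR14 stood higher still on Os.45957.1.S1_at, at 9.93 to 10.37. Other probe sets with the stem Os.45957, which in the array's naming mark the same transcript cluster, did not pass: 2 of them had folds of 3.50 and 3.10 and 1 had a fold of -0.09 (adjusted p 0.524, 0.331 and 0.962). Os.39997.1.S1_x_at read 8.24, 8.62 and 9.06 in the lines, against 7.00, 7.15 and 7.14 in WT, and rose by 1.56 ± 0.20 (limma adjusted p 0.0218). GR14 was again above the lines on it, at 9.23 to 10.01. The call did not hold in 35S-15 or HFL1 alone (adjusted p 0.0852 and 0.191) or when any 1 of the WT arrays, 35S-15 array 1, HFL1 array 2 or HFL1 array 3 was left out. Its 3 stem-mates had folds of 1.47, 1.23 and 0.60 and did not pass. Os.49703.1.S1_at read 6.56, 6.94 and 7.29 in the lines, against 4.59, 4.44 and 4.84 in WT, and rose by 2.31 ± 0.31 (limma adjusted p 0.0246), with GR14 between them at 5.56 to 6.51. This call did not hold without the filter on low values (adjusted p 0.071) or when any 1 of the 9 arrays was left out. On none of these 4 probe sets did the groups overlap.

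Set against WT separately, 35S-15 gave 8 called probe sets (0.0262%) and HFL1 gave 7 (0.0229%), and each count holds 6 of the 10. The 2 comparisons share the WT arrays. On each of the 10 the HFL1 minus 35S-15 difference did not pass the test, with limma adjusted p values of 0.957 or more. For LOC4331398 (Os.43929.1.S1_s_at) that difference was -0.02, with a 95% interval of -0.97 to 0.93. For LOC9268308 (Os.10659.1.S1_s_at) it was 0.43, with an interval of -0.44 to 1.31. The intervals were wider on the other probe sets of these genes, at -1.93 to 1.87 (Os.8823.1.S1_at) and -1.58 to 1.58 (Os.10659.1.S1_at), and widest on Os.54492.1.S1_s_at, at -2.06 to 2.02.

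The choice of WT arrays decided which further probe sets passed. With WT array 1 as the only control 30 probe sets passed, all higher (0.0983%), and with WT arrays 2 and 3 as controls 14 passed (0.0459%), of which 10 were higher and 4 lower (0.0131%). Each choice kept 8 of the 10. The same 2 were lost both times: Os.39997.1.S1_x_at (adjusted p 0.150 with WT array 1 and 0.0959 with WT arrays 2 and 3) and Os.49703.1.S1_at (0.113 and 0.0632). The single WT array of the first choice is assumed to vary like the other arrays.

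The 4 probe sets that were lower only against WT arrays 2 and 3 had in common that WT array 1 lay within or close to the range of the lines. OsBiP4 had a log2 fold of -6.27 ± 1.55 over all WT arrays (limma adjusted p 0.571), of -8.96 against WT arrays 2 and 3 (adjusted p 0.00315) and of -0.89 against WT array 1. SAT1, named for a serine acetyltransferase of cysteine synthesis, was at 10.08, 10.40 and 10.73 in the lines, against 10.88, 12.28 and 12.48 in WT. Its folds were -1.97 against WT arrays 2 and 3 (adjusted p 0.000707) and -0.47 against WT array 1 (0.663). LOC4347551 and LOC4340145 had folds of -2.84 and -1.41 against WT arrays 2 and 3, and of -0.09 and 0.18 against WT array 1. The only 2 probe sets that were higher only against WT arrays 2 and 3 were both of APR-like1, a relative of the adenylylsulfate reductases with 3 probe sets. They had folds of 1.22 and 1.10 there, and of -0.08 and -0.02 against WT array 1. The other APR-like1 probe set had a fold of 0.41 over all WT arrays (adjusted p 0.824).

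Against WT array 1 the further calls included METK3, an S-adenosylmethionine synthetase, which uses methionine and so draws on the aspartate family. METK3 was at 11.08, 11.29 and 11.65 in the lines, against 8.37, 10.80 and 11.28 in WT. Its fold was 2.96 against WT array 1 (adjusted p 0.000589) and 0.29 against WT arrays 2 and 3 (0.840), and 1.18 ± 0.47 over all WT arrays (0.662). OsSAP7, a stress-associated zinc finger protein, was at 6.13, 7.00 and 7.82 in the lines, against 2.74, 5.67 and 6.39 in WT, with folds of 4.26 and 0.97. The 2 other OsSAP7 probe sets had folds of -0.20 and 0.03 over all WT arrays. On the 2 probe sets with values here WT array 1 was the low one.

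**Figure D2:**
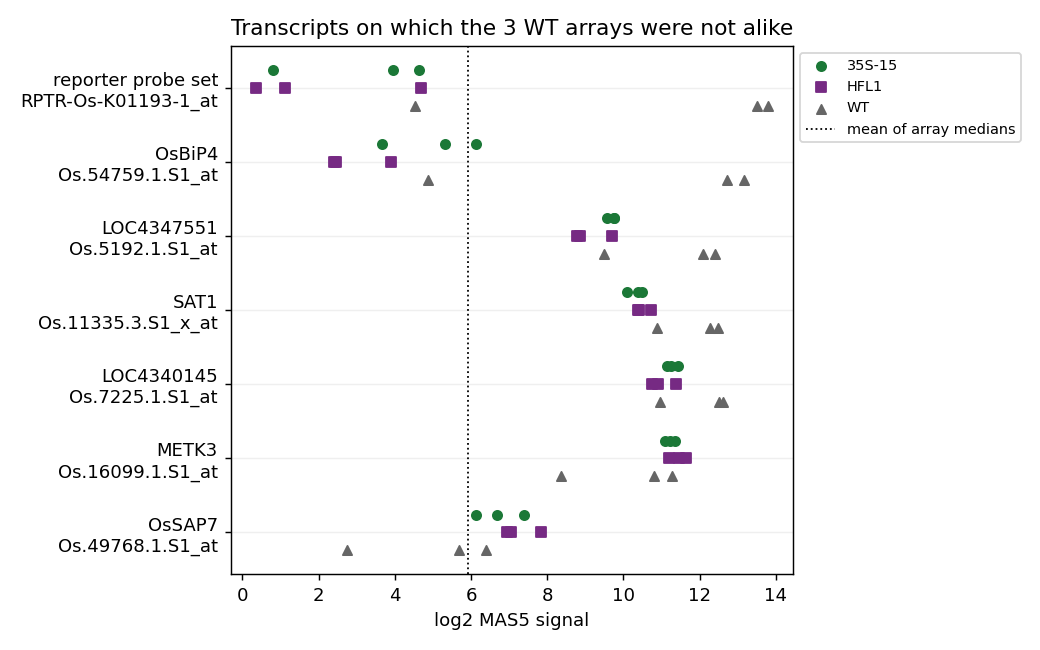
Log2 MAS5 signal (horizontal axis) of 7 probe sets on which WT array 1 and WT arrays 2 and 3 lay apart, with 1 point per array for 35S-15, HFL1 and WT. On the upper 5, 1 WT point lies within or close to the range of the lines and 2 lie to the right of it; on METK3 and OsSAP7 1 WT point lies far to the left.

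No transcript with an informative gene symbol passed over all 3 WT arrays. The symbols with the largest folds among those with an unadjusted p under 0.01 and no overlap are given here as values. The rule names at most 12 per direction. The 12 named on the higher side were led by the ammonium transporter AMT3-1 (1.75 ± 0.43), the metallothionein MT2B (1.67 ± 0.48), the ascorbate peroxidase APX2 (1.23 ± 0.35) and the metal transporter ZIP3 (1.10 ± 0.32). Other probe sets of these genes had a fold of -0.09 for AMT3-1, folds of -0.18 to 0.13 for MT2B and folds of 0.36 to 0.48 for APX2. The other 8 named lay between 0.68 and 0.82. They include GDCSH, the H protein of glycine decarboxylase in photorespiration, at 10.45, 10.73 and 11.15 in the lines, against 10.10, 9.88 and 9.85 in WT (0.80 ± 0.16, limma adjusted p 0.331). PPT3, of the phosphoenolpyruvate translocator family, read 9.06, 9.28 and 9.56 in the lines, against 8.39, 8.85 and 8.46 in WT (0.72 ± 0.16, adjusted p 0.447).

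On the lower side 8 genes met the rule, and the endosperm transcription factor subunit NFYB1 came closest to the threshold. NFYB1, which acts in grain filling, was at 12.85, 13.20 and 13.35 in the lines, against 13.92, 14.03 and 14.02 in WT. Its fold was -0.86 ± 0.14 with a limma adjusted p of 0.100, and it lay below every WT array in all 6 arrays of the lines. The fold was -0.79 against WT array 1 and -0.89 against WT arrays 2 and 3. GR14 was also low on NFYB1, at 13.20 to 13.38, and the lines differed from GR14 by -0.14 (limma adjusted p 0.563). NFYB1 passed in 2 of 25 alternative settings. These were the fit whose estimate of spread included the GR14 arrays (limma adjusted p 0.0435) and the fit with line as a random block (0.014). In the block fit the correlation within a line was estimated as negative (-0.14). This lowers the SE, so the 0.014 makes no allowance for differences between lines. The other 7 were SAT1 (-1.47), HIRL1 (-1.24), OsSPO11B (-0.70), the initiation factor eIF-4A-1 (-0.58), the aldolase FBA3 (-0.55), the elongator subunit ELP3 (-0.40) and the derlin DER2 (-0.35). Other probe sets of these genes differed in size or sign. They had folds of -0.44 for SAT1, of -0.24 and -0.74 for HIRL1, of -0.13 for OsSPO11B, of -0.20 and 1.08 for eIF-4A-1 and of 0.21 and 0.50 for FBA3.

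Gene lists were described by the genes of each that were tested, with 1 probe set per gene, beside all 15950 genes so treated. Over all genes the median log2 fold was -0.0005, 2 genes were called higher and 0 lower. Of all genes, 2.06% lay higher and 1.39% lower in all 6 arrays of the lines than in all 3 WT arrays. No gene of any of the 22 lists passed the test over all WT arrays, so the lists are given as values only. In whole seeds, fewer cells of a type and less RNA per cell cannot be told apart.

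Photosynthesis genes, which mark the green pericarp, all had positive pooled folds. All 17 tested members lay between 0.01 and 0.64, with a median of 0.24. The median was 0.24 in 35S-15 and 0.26 in HFL1, which share the WT arrays, and it was 0.44 against WT array 1 and 0.27 against WT arrays 2 and 3. In 35S-15 alone CHL9 (-0.30), PORA (-0.11), CHL1 (-0.05) and CAO (-0.0053) had negative folds and the other members positive ones. In HFL1 alone all members had positive folds. The summed signal of the list, on the linear scale, was 147900 at the lowest, 162900 at the median and 199300 at the highest in the lines, against 125800, 139000 and 134800 in WT. All 6 line arrays thus lay above WT on this sum. This was not particular to photosynthesis, since it also held for the sums of the starch synthesis, aspartate family and pathogenesis-related lists. For starch synthesis the margin was small, at 179700 for the lowest line array against 179300 in WT array 1. The part of the amount of pericarp in this was not tested.

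The 6 members without overlap, of 17 tested, are PORB and 5 genes of the light reactions. Over all genes 2.06% lay higher without overlap. PORB, a protochlorophyllide oxidoreductase that makes chlorophyll in light, was at 11.05, 11.33 and 11.43 in the lines, against 10.47, 10.61 and 10.87 in WT (0.64 ± 0.13, limma adjusted p 0.331). PSAH, a subunit of photosystem I, was at 11.80, 12.04 and 12.38 in the lines, against 11.54, 11.45 and 11.62 in WT (0.54 ± 0.15, adjusted p 0.610). The groups did not overlap on either. The same held for the chlorophyll a/b-binding proteins RCABP89 (0.43) and CAB2R (0.31), for petC (0.43), the Rieske protein of the cytochrome b6f complex, and for plastocyanin, PETE (0.39). Other steps of chlorophyll synthesis and carbon fixation had smaller folds: the magnesium chelatase subunit CHLH had a fold of 0.24, the RuBisCO small subunit OsrbcS 0.24, the RuBisCO activase OsrcaA1 0.20 and the chlorophyllide oxygenase CAO 0.01. The other protochlorophyllide oxidoreductase, PORA, had a fold of 0.05, and CHL9 and CHL1 had folds of 0.12 and 0.03. GLN2, the chloroplast glutamine synthetase, which is a member of the nitrogen list, was at 11.04, 11.45 and 11.67 in the lines, against 10.61, 10.99 and 10.65 in WT (0.65 ± 0.15, adjusted p 0.524), with no overlap, and its other probe set had a fold of -0.06.

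**Figure D3:**
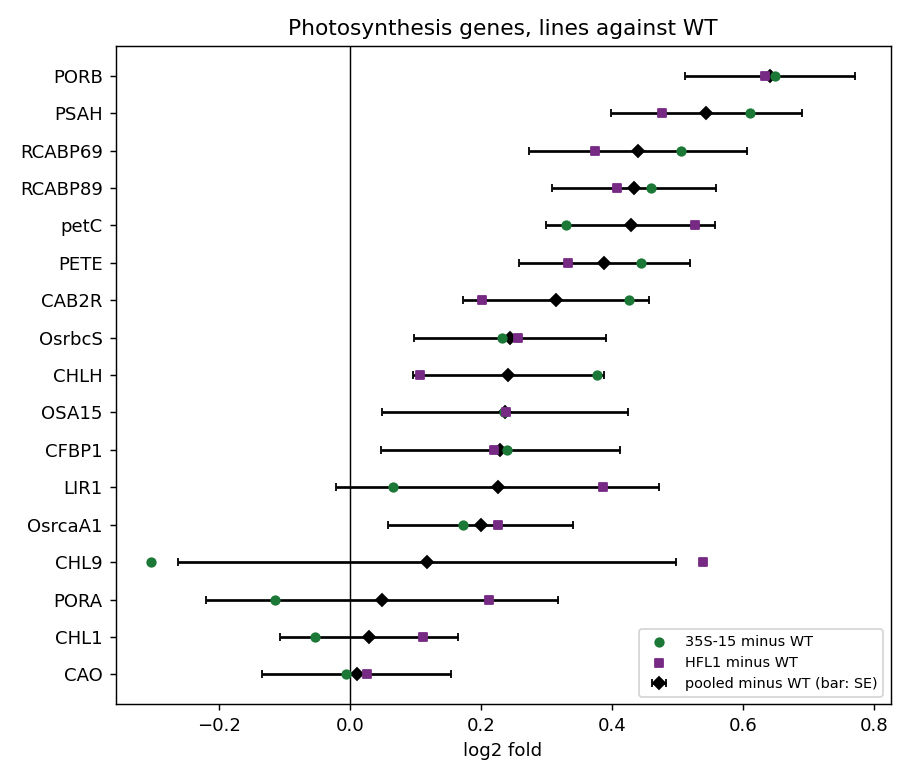
Log2 fold (horizontal axis) of the 17 photosynthesis genes, for 35S-15 minus WT, HFL1 minus WT and the pooled lines minus WT; the bar is the SE of the pooled fold. Every pooled fold lies right of 0, and the largest is 0.64, for PORB.

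The endosperm lists had positive medians. The 3 glutelins had folds of 0.19 to 0.28 and the 5 prolamin, globulin and albumin genes folds of 0.21 to 0.59. In none of these 8 did the 6 and the 3 arrays separate. The medians of the 2 lists were 0.24 and 0.48, against WT array 1 they were 0.22 and 0.16, and against WT arrays 2 and 3 they were 0.25 and 0.68. PROLM25, a prolamin, was at 14.95, 15.42 and 15.97 in the lines, against 15.22, 15.25 and 14.05 in WT (0.57 ± 0.27). RAG1, a seed albumin, had a fold of 0.59, which was -0.48 against WT array 1 and 1.13 against WT arrays 2 and 3. On GLUB-5, GLUA-2 and RAG2 the highest signal came from 35S-15 array 3. The 11 starch synthesis genes had a median of 0.11, which was 0.01 against WT array 1 and 0.12 against WT arrays 2 and 3. Among them AGPS2, the small subunit of ADP-glucose pyrophosphorylase, was at 14.82, 14.87 and 15.33 in the lines, against 14.71, 14.55 and 14.58 in WT (0.35 ± 0.13, limma adjusted p 0.617). It was the only 1 of the 11 starch genes without overlap, where 2.06% of all genes lay higher without overlap. The 11 embryo and aleurone genes include NFYB1 (-0.86), which is named above as an endosperm factor. Their median was -0.21, and it was -0.02 in 35S-15 and -0.51 in HFL1. It was -0.51 against WT array 1 and -0.14 against WT arrays 2 and 3, and leaving out each array in turn gave -0.42 to -0.07. VP1, an embryo maturation regulator, read 10.03, 10.26 and 11.01 in the lines, against 11.44, 10.58 and 10.47 in WT, with overlap (-0.45 ± 0.25). The VP1 fold was -1.06 against WT array 1 and -0.14 against WT arrays 2 and 3.

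None of the 5 enzymes of lysine synthesis with a symbol here passed the test; aspartate kinase and dihydrodipicolinate synthase, the feedback-controlled steps, were not analysed here. DAPB1 and DAPB2, dihydrodipicolinate reductases, had folds of 0.04 ± 0.17 and 0.56 ± 0.24. The DAPB1 fold moved with the control, at 0.52 against WT array 1 and -0.20 against WT arrays 2 and 3. For DAPB2 these folds were 0.705 and 0.48. DAPF, the epimerase that makes meso-diaminopimelate, had a fold of 0.06 ± 0.11, LYSA, the decarboxylase of the last step, -0.04 ± 0.13, and AGD2, an aminotransferase, -0.09 ± 0.14. The groups overlapped on all 5. LYSA, for example, was at 11.76, 12.13 and 12.31 in the lines, against 11.99, 12.08 and 12.25 in WT. The S-adenosylmethionine synthetase SAMS was at 14.27, 14.47 and 14.65 in the lines, against 14.22, 14.12 and 14.24 in WT, with no overlap and a fold of 0.28 ± 0.10 (limma adjusted p 0.638). In the tryptophan and serotonin list of 10 genes, which had a median of 0.01, the tryptophan decarboxylase TDC2 had a fold of -0.32 ± 0.19 and the tryptamine 5-hydroxylase T5H one of 0.27 ± 0.17.

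ER chaperones and folding factors turned with the choice of WT arrays. Their 23 genes had a median of -0.14, with 15 negative folds, and it was 0.09 against WT array 1 and -0.21 against WT arrays 2 and 3. BZIP50, a transcription factor of the unfolded protein response, was at 10.59, 10.94 and 11.48 in the lines, against 11.24, 12.03 and 12.19 in WT. Its fold of -0.80 ± 0.24 was -0.22 against WT array 1 and -1.09 against WT arrays 2 and 3. ERDJ3B, a co-chaperone, had folds of -0.71 over all WT arrays, -0.03 against WT array 1 and -1.05 against WT arrays 2 and 3. BIP1, the main BiP of the seed, had a fold of -0.14 ± 0.21. On BZIP50 and ERDJ3B, WT array 1 lay within the range of the lines and WT arrays 2 and 3 above it.

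The remaining lists are given briefly. Of 43 heat shock genes 36 had positive folds (median 0.23), and the median was 0.39 in 35S-15 and 0.11 in HFL1, and 0.10 against WT array 1 and 0.37 against WT arrays 2 and 3. Of 12 pathogenesis-related genes 11 had positive folds (median 0.28), and of 14 genes of the tricarboxylic acid cycle 11 had negative ones (median -0.14). All 6 tested WRKY genes were positive (median 0.23), with overlap on each. Medians were 0.14 for 25 iron and zinc genes, 0.10 for 7 metallothioneins, 0.09 for 19 sugar transport genes, 0.07 for 50 redox genes and 0.07 for 23 phenylpropanoid genes. They were 0.03 for 15 nitrogen assimilation genes, 0.02 for 28 jasmonate genes, -0.02 for 24 cytosolic ribosome genes, -0.05 for 19 proteasome genes and -0.17 for 7 clock genes. Of these, the sugar transport, phenylpropanoid, nitrogen, jasmonate, ribosome and proteasome medians had the opposite sign against WT array 1. The morning clock gene CCA1 was at 12.45, 12.92 and 13.29 in the lines, against 13.21, 13.24 and 13.05 in WT, with overlap (-0.25 ± 0.18).

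**Figure D4:**
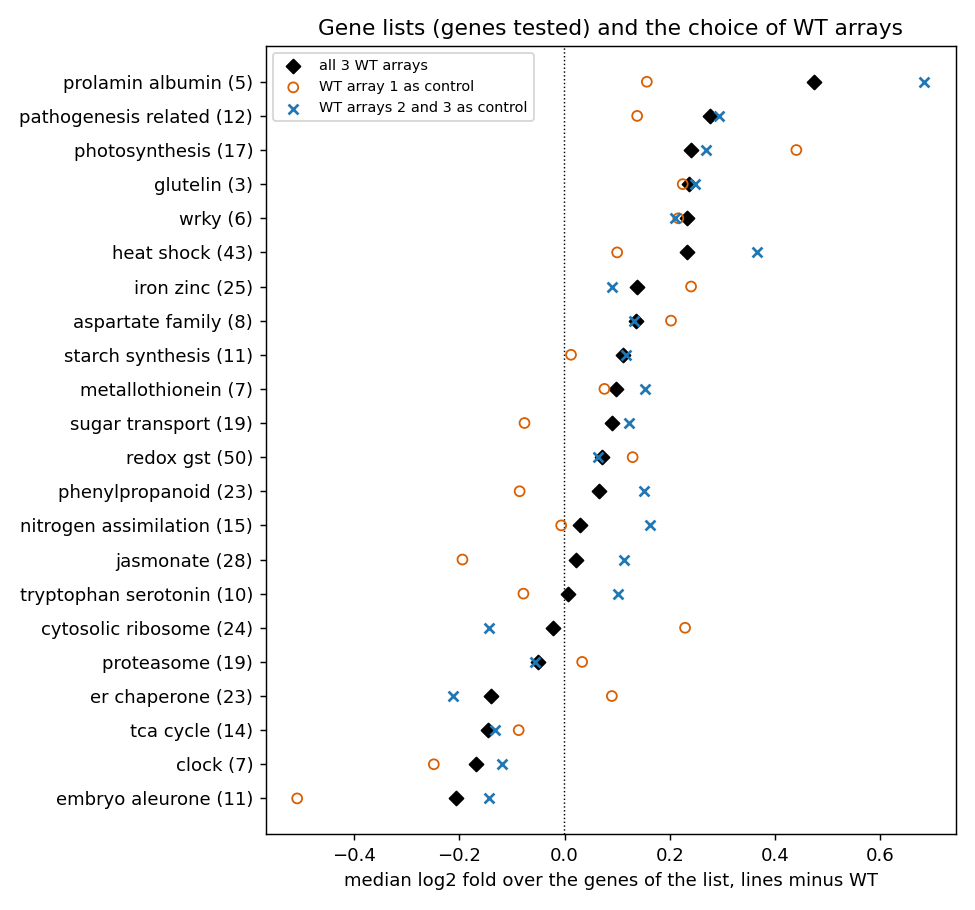
Median log2 fold (horizontal axis) of each of the 22 gene lists, pooled lines minus WT, with all 3 WT arrays, with WT array 1 and with WT arrays 2 and 3 as control; the number of genes tested is in brackets and the dotted line is the median of all genes. The photosynthesis median stays right of the line under all 3 choices, while the ER chaperone median lies at -0.14, 0.09 and -0.21.

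On 1 probe set the 2 lines differed. LOC4340325 on Os.10266.1.S1_at was at 10.63, 10.82 and 10.64 in HFL1, against 4.86, 5.86 and 5.57 in 35S-15, with WT at 1.81, 3.86 and 2.42. The HFL1 minus 35S-15 difference of 5.27 ± 0.52 was the only one of 30507 to pass (0.00328%, limma adjusted p 0.0226), against 4.25% of probe sets at an unadjusted p under 0.05. GR14 read 10.58 to 10.87 on it. Because of this split the pooled fold of 5.37 ± 1.39 did not pass (adjusted p 0.610), and the other probe set of LOC4340325 had a pooled fold of -0.11.

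For 2 further genes the line values lay apart without passing the test. MT2B on Os.12410.3.S1_x_at was at 11.48, 11.43 and 11.73 in HFL1, against 12.82, 13.94 and 13.19 in 35S-15, with WT at 10.76, 10.69 and 10.83. In 35S-15 alone it rose by 2.56 against WT (limma adjusted p 0.00238), and in HFL1 alone its fold was 0.79 (0.728), while the difference between the lines did not pass (-1.77 ± 0.23, adjusted p 0.131). Both probe sets of LOC4330940 were 2.05 lower in HFL1 than in 35S-15 (adjusted p 0.366 and 0.131), with pooled folds of -0.73 and -0.54 against WT.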

How the data were processed

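RNA of developing seeds was hybridized to Affymetrix rice arrays, from 6 ug of total RNA taken up in Trizol, per the labels' protocols. The authors deposited linear signal intensity for each probe set, made with MAS5 per the submitters' processing notes, whose version the sources used here do not state. The trimmed mean was 500.1 in every array, so the authors had scaled each one. There were 0 unused columns of samples. The number of arrays limits the precision.

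Log2 of the deposited signal was fitted as 2 groups (6 and 3 arrays) with limma 3.58.1 in R 4.3.3 (eBayes with trend, two-sided), without the 123 AFFX and 64 RPTR probe sets. Of 57381 probe sets 30507 were tested, those exceeding the array median on 3 or more of the 9 arrays. Errors are SEs of the fit. Line differences came from a 3-group fit. The comparison with GR14 came from a 4-group fit, added after the data were seen. Arrays were numbered in the order of the deposit, which pairs nothing. The fit was tested on simulated data of 30507 probe sets and called 41 of 100 at a log2 fold of 1 and 74 of 100 at 2. There were 6 false calls among the 30307 probe sets simulated without a fold. The adjusted threshold depends on how many probe sets pass. These shares therefore need not hold for the seed arrays, where 10 passed.

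The array annotation gave 1 gene to 22436 probe sets, several to 95 and none to 34850, with names updated through the RefSeq table of assembly ASM3414082v1. Of 17905 genes, 2458 had an informative symbol. No coordinates or sequences are given, since the array files name no build.

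The members and gene lists were chosen with earlier results of these data known. Named genes were all called probe sets, up to 12 symbols per direction with an unadjusted p under 0.01 and no overlap, the 4 lowest p of each list, and lysine, serotonin, OsBiP4 and 4 LOC genes. The further genes named for the choice of WT arrays were chosen after their values were seen. Alternatives were quantile normalization, median centring, other filters, log2(signal + 50), no _x_at or _s_at probe sets, no trend, array weights, other designs, other control arrays, a 2-fold threshold and leaving out each array.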

Additional observations from a re-analysis of the deposited data

Results flagged for a closer look

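Among 123 named probe sets, 5 had 1 array of the 6 far from the other 5 by Dixon's test, and chance alone flags about 1 in 20 such groups. In 35S-15 array 3, 3 storage protein probe sets were the highest of the group, GLUB-5 at 16.08, GLUA-2 at 16.08 and RAG2 at 16.11, and OsWRKY24 was the lowest at 3.56. In 35S-15 array 2 FBA3 was the lowest at 11.35. None of these 5 probe sets passed the test.

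LOC4340325 (Os.10266.1.S1_at) differed between the 2 pooled lines, with HFL1 5.27 above 35S-15 on the log2 scale by the test of that difference (limma adjusted p 0.0226).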

How the results depend on the processing

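Of the 10 called probe sets, 6 passed in every setting where they were tested and all 10 kept a positive fold in every setting; the calls lost were of LOC9268308 on Os.10659.1.S1_at, Os.39997.1.S1_x_at, Os.54492.1.S1_s_at and Os.49703.1.S1_at. Of 113 other probe sets named by rule, 6 passed in some setting. Among them are OsBiP4, SAT1 and METK3, which moved with the choice of WT arrays. Those named only for that choice are not in this count and passed under 1 of the 2 choices. Without _x_at and _s_at probe sets 5 passed, all 5 higher. With line as a random block (estimated correlation -0.14) 17 passed, 2 of them lower, and in the 4-group fit 1 was lower. The negative correlation lowers the SEs of the block fit. With WT array 1 as the only control 30 passed, 30 of them higher, and with WT arrays 2 and 3 as controls 14 passed, 4 of them lower. Leaving out each array in turn gave 7 to 14 called, 7 to 10 higher and 0 to 4 lower, with 14 without WT array 1 and 7 without WT array 3, 35S-15 array 1, HFL1 array 2 or HFL1 array 3. The causes were not tested.

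Of the 22 list medians, 13 kept their sign in every setting. With WT array 1 as the only control the median was 0.44 for photosynthesis, 0.09 for ER chaperones, -0.0855 for phenylpropanoid, -0.0762 for sugar transport, 0.23 for cytosolic ribosome, 0.0335 for proteasome, 0.13 for redox and -0.19 for jasmonate genes. The nitrogen median was 0.16 with WT arrays 2 and 3, the glutelin median 0.0236 after quantile normalization, the redox median 0.0063 in 35S-15 alone and the WRKY median 0.0668 under the 70th percentile filter. Leaving out each array gave ranges of 0.0208 to 0.16 for nitrogen, 0.0494 to 0.33 for iron and zinc and 0.13 to 0.41 for WRKY genes. No paired analysis was possible because the labels give the arrays no replicate numbers shared between groups.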
